A study of Mus musculus with 29 samples.

Results

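Prostates of TRAMP mice with a palpable adenocarcinoma at 30 wks of age (T30, n = 4) were compared with prostates of TRAMP mice at 18 wks in which no tumor was palpable (T18, n = 4). These 8 arrays were chosen by the group in their sample titles, out of 29 arrays in the series. The other 21 arrays came from OPN-/-TRAMP mice, which also lack osteopontin. They were 5 prostates at 15 wks (OPT15), 13 at 18 wks (OPT18) and 3 tumors labelled neuroendocrine at 18 wks (OPT-tm). All T30 and T18 mice were males of the strain labelled C57BL/6-tgN (TRAMP)8247Ng with intact osteopontin, and all carried the TRAMP transgene, in which the rat probasin promoter drives the SV40 T antigens in prostate epithelium. The methods describe the T18 prostates as having null or minimal disease, so they are early transgenic tissue and not normal prostate. Age, tumor and the length of T antigen expression differ together between the groups and cannot be told apart. Each of 4 BeadChips (Illumina MouseRef-8 v2.0) held 1 array of each group, and T30 always lay at position G and T18 at position H, so position and group cannot be told apart either.

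The SV40 large T antigen binds and inactivates the Rb and Trp53 tumor suppressor proteins. In TRAMP mice this drives epithelial hyperplasia, then intraepithelial neoplasia and adenocarcinoma of the prostatic lobes. The mouse prostate is made of several pairs of lobes whose luminal cells secrete different proteins, it lies against the seminal vesicles and the striated muscle of the urethra, and it is innervated by pelvic autonomic ganglia, so a dissected prostate can hold RNA of all of these.

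Signals are log2 values after quantile normalization, on a scale that ran from 7.15 to 16.12, and values close to 16 lie at the upper end of what these arrays measure. Between 39.8% and 50.4% of probes were detected (detection p below 0.01) on each of the 8 arrays. Detection was lower on chips 3 and 4 (39.8% to 41.4%) than on chips 1 and 2 (49.2% to 50.4%), in T30 and T18 alike. A fold change is T30 against T18, and a gene was called changed when limma gave a Benjamini-Hochberg adjusted p below 0.05 and the change was at least 2-fold. The mice are separate animals, so the p-values measure the spread between mice of a group.

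Far more genes were lower than higher in T30. Of 10768 genes tested, 134 were lower (1.24%) and 26 were higher (0.241%), while the median of all genes was 0.00 on the log2 scale. Genes of striated muscle made up 34 of the falls, and 100 falls remained outside that list (0.934% of the 10701 genes outside it). The falls ran from -1.01 to -6.44 on the log2 scale, with a median of -1.52 outside striated muscle and -2.54 within it. The rises ran from 1.01 to 2.97 with a median of 1.39. Of the falls, 64 were detected in no T30 mouse, 40 of them outside striated muscle, so background limits their measured sizes. Every rise was detected in at least 1 T18 mouse. All 26 rises and 133 of the 134 falls had no overlap between the groups, the exception being Car3. The calls came from the same values, so this lack of overlap adds no support to them. Over all genes, 11.8% had no overlap in either direction. The calls were fewer with chip as a block, 15 rises and 105 falls, of which 10 and 103 were calls without the block. The counts also hung on single mice. The rises numbered 114 without the T30 mouse of chip 1, 7 without that of chip 3 and 13, 17, 13 and 14 without the T18 mice of chips 1 to 4. The falls numbered 84 without the T30 mouse of chip 3, and those outside striated muscle 52 without the same mouse, 159 without the T30 mouse of chip 1 and 59 without the T18 mouse of chip 4.

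**Figure D1:**
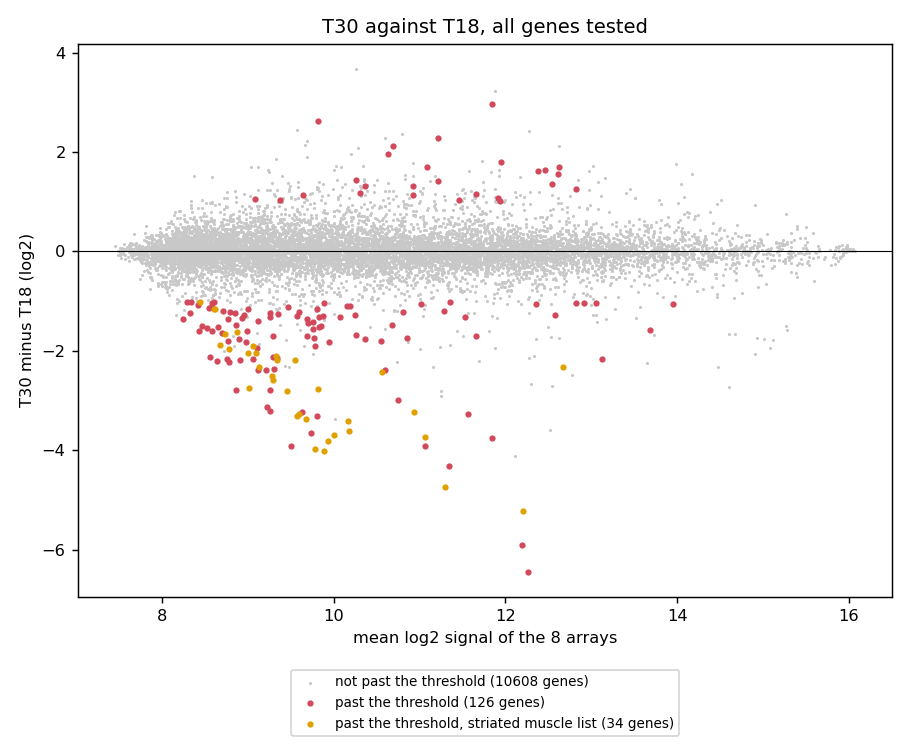
Difference between T30 and T18 (log2) against the mean log2 signal of the 8 arrays for 10768 genes. Red points mark the 26 rises and 100 falls outside striated muscle and yellow points the 34 striated muscle genes that fell.

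The largest fall was in 2 neighbouring secretoglobin genes, Scgb2b27 and Scgb2b26. They encode subunits of the androgen-binding protein family, small secreted proteins known from mouse saliva and tears. Scgb2b27 gave 15.38, 15.27, 15.95 and 15.32 in the T18 mice of chips 1 to 4, and 9.01, 7.98, 9.92 and 9.25 in the T30 mice. It fell 86.7-fold, a log2 difference of -6.44 ± 0.36 (SE, adjusted p = 2.39e-05 by limma), and was not detected in the T30 mouse of chip 2. Scgb2b26 gave 14.79, 14.94, 15.74 and 15.12 in T18 and 9.29, 8.33, 9.49 and 9.86 in T30, a difference of -5.91 ± 0.32. The groups lay more than 4 log2 units apart in both genes. Another secretoglobin, Scgb1b27, was at 10.71 to 13.15 in T18 and was not detected in any T30 mouse, a fall of at least 6.55-fold (adjusted p = 0.00250 by limma). A bound of this kind sets the T18 mean against, in each T30 array, the lowest signal of a detected probe or the gene's own signal if higher. Of 4 secretoglobins tested, a group put together after the values were seen, 3 fell, against 1.24% of all genes. Scgb2b24, at 7.95 to 9.42 in T18 and 7.64 to 8.34 in T30, did not pass. In bulk tissue, fewer cells of a type and less RNA per cell cannot be told apart. Outside the comparison, Scgb2b27 was at 15.28 to 15.77 in the 13 OPT18 prostates and at 13.35 to 14.96 in the 3 OPT-tm tumors.

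The 3 genes lie within a cluster of the family on mouse chromosome 7 (GRCm38.p6). Scgb2b26 lies at chr7:33942997-33944985 and Scgb2b27 at chr7:34011919-34013942, both on the minus strand, and Scgb1b27 at chr7:34021481-34022881 on the plus strand. The 250 bases before each annotated start are shown for Scgb2b26 and Scgb2b27 because the pair fell together and shares most of this stretch. The sequences are RefSeq's and are written in the direction of the gene, at chr7:33944986-33945235 and chr7:34013943-34014192. Capitals mark the longest run that the pair shares, of 29 bases.
Scgb2b26: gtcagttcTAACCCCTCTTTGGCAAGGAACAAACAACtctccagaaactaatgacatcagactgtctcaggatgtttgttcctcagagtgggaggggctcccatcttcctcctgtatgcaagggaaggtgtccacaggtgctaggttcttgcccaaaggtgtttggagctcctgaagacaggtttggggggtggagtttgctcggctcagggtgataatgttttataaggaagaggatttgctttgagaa
Scgb2b27: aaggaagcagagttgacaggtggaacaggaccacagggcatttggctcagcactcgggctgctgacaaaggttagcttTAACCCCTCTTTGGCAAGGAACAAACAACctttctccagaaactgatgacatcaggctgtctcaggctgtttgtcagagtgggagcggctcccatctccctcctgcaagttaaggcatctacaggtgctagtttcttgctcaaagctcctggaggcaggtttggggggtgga
Where the pair could be aligned, 160 of 177 bases were identical (90.4%), and the shared run ended 213 bases before the start of Scgb2b26 and 143 before that of Scgb2b27. Of 32851 promoter windows in the table, 2 held this run on either strand, those of the pair. The longest run that either shared with Scgb1b27 was 7 bases. Whether the probes tell the copies of the family apart was not tested.

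Other large falls outside striated muscle covered several functions. Nxpe4, a gene named for its PC-esterase domain, was at 12.73 to 13.61 in T18 and 8.70 to 9.83 in T30 (-3.92 ± 0.28). Abo, the glycosyltransferase of the A and B blood group antigens, gave 13.74, 13.61, 13.99 and 13.53 in T18 and 10.96, 8.27, 9.89 and 10.77 in T30, a 13.4-fold fall that includes a mouse, that of chip 2, in which Abo was not detected. Slc26a4, the anion exchanger pendrin, showed a like spread among the T30 mice, with 10.58, 8.40, 10.12 and 10.59 against 12.92 to 13.53 in T18. In both genes every T30 mouse lay below every T18 mouse and the mouse of chip 2 lay lowest. Slc5a8, a sodium-coupled monocarboxylate transporter, ordered the T30 mice differently, with 7.5 on chip 1 and 10.92 on chip 2 against 11.79 to 13.00 in T18 (-2.99 ± 0.60, adjusted p = 0.0358 by limma, and 0.0754 with chip as a block). Serpina1f, a serpin, Gpr83, a G protein-coupled receptor, and Cuzd1, a CUB domain protein, were detected in every T18 mouse and in no T30 mouse, with falls of at least 6.98-fold, 5.65-fold and 4.31-fold. Cbr2, a carbonyl reductase, stayed well above background in both groups, at 13.53 to 15.00 in T18 and 11.68 to 12.33 in T30.

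Beta-defensins are small cationic antimicrobial peptides, many of them made along the male tract. Of 41 with a probe, 16 were tested. Of the 16, 7 fell, against 1.24% of all genes, and none rose, with a median of -1.07 against 0.00 over all genes. Counting all 16, 7 were detected in no T30 mouse and 2 in no T18 mouse. This group was put together after the values were seen. Defb42 gave 12.86, 13.37, 14.24 and 13.52 in T18 and 7.59, 8.80, 11.94 and 8.44 in T30, where 2 mice had it detected (-4.31 ± 0.79, adjusted p = 0.0239 by limma). The T30 mouse of chip 3 lay more than 3 log2 units above the other T30 mice and still below every T18 mouse. Defb2, Defb28, Defb11, Defb43, Defb10 and Defb30 lay between -1.77 and -1.01. Defb2 and Defb30 were not called with chip as a block (adjusted p = 0.0919 and 0.0799 by limma). The falls of the group numbered 2 without the T18 mouse of chip 4, and 4 without the T18 mouse of chip 3 or the T30 mouse of chip 3 or 4. Of 16 epididymis markers, also listed after the values were seen, 12 had a probe and 4 were tested. Their mean was 8.23 to 9.0 in T18 and 8.15 to 8.78 in T30, and none was called. Of the 4, 2 were detected in no T30 mouse and 1 in no T18 mouse. Whether epididymis contributed to the defensin signals was not tested. Wfdc3, Wfdc10 and Wfdc6b, of the whey acidic protein type of protease inhibitors, also fell, with differences of -1.82, -1.47 and -1.41. They were the 3 falls among 10 such genes tested, against 1.24% of all genes, and none of the 10 rose (median -0.40). Wfdc18 lay the other way and did not pass, at 7.99 to 9.01 in T18 and at 7.87, 14.20, 13.25 and 13.09 in T30.

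The luminal secretion and androgen response list was lower in every T30 mouse and held few calls. Of 34 genes tested, 2 fell, against 1.24% of all genes, and none rose, with a median of -1.05. The 2 were Wfdc3 and Acpp, the prostatic acid phosphatase, with differences of -1.82 and -1.04. Acpp was detected in only 3 T18 mice and was not called with chip as a block (adjusted p = 0.0754 by limma). The list mean was 12.45, 12.48, 12.14 and 12.50 in T18 and 11.94, 10.05, 11.36 and 11.78 in T30, so every T30 mouse lay below every T18 mouse and that of chip 2 lay far below the other T30 mice. The falls numbered 7 without the T30 mouse of chip 1, 4 without that of chip 2, and 1 when that of chip 3 or any single T18 mouse was left out. Mouse probasin (Pbsn), the gene whose rat counterpart lends the transgene its promoter, gave 11.03, 10.21, 9.75 and 11.36 in T18 and 10.51, 7.62, 7.45 and 7.55 in T30. It was detected in every T18 mouse and only in the T30 mouse of chip 1, and with that mouse inside the T18 range the difference did not pass the test (-2.31 ± 0.66, adjusted p = 0.113 by limma). Of other genes, Cldn10, a claudin, fell from 14.21 to 14.62 down to 12.53 to 13.09, and Gjb2, a gap junction connexin, from 13.16 to 13.27 down to 11.77 to 12.21. In both genes the T30 mice lay within 0.6 log2 units of each other. Aldh3a1, an aldehyde dehydrogenase, and the basal genes Krt15, a keratin, and Aqp3, a water channel, fell by 1.31, 1.48 and 1.34 on the log2 scale, and Krt15 was not called with chip as a block (adjusted p = 0.0871 by limma). Krt15 and Aqp3 were the 2 falls among 17 basal genes, against 1.24% of all genes. Of the 17, 10 were higher in T30 (median 0.22). Krt8, a luminal keratin, was at 14.75 to 15.01 in T18 and 14.92 to 15.40 in T30 and did not pass the test.

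**Figure D2:**
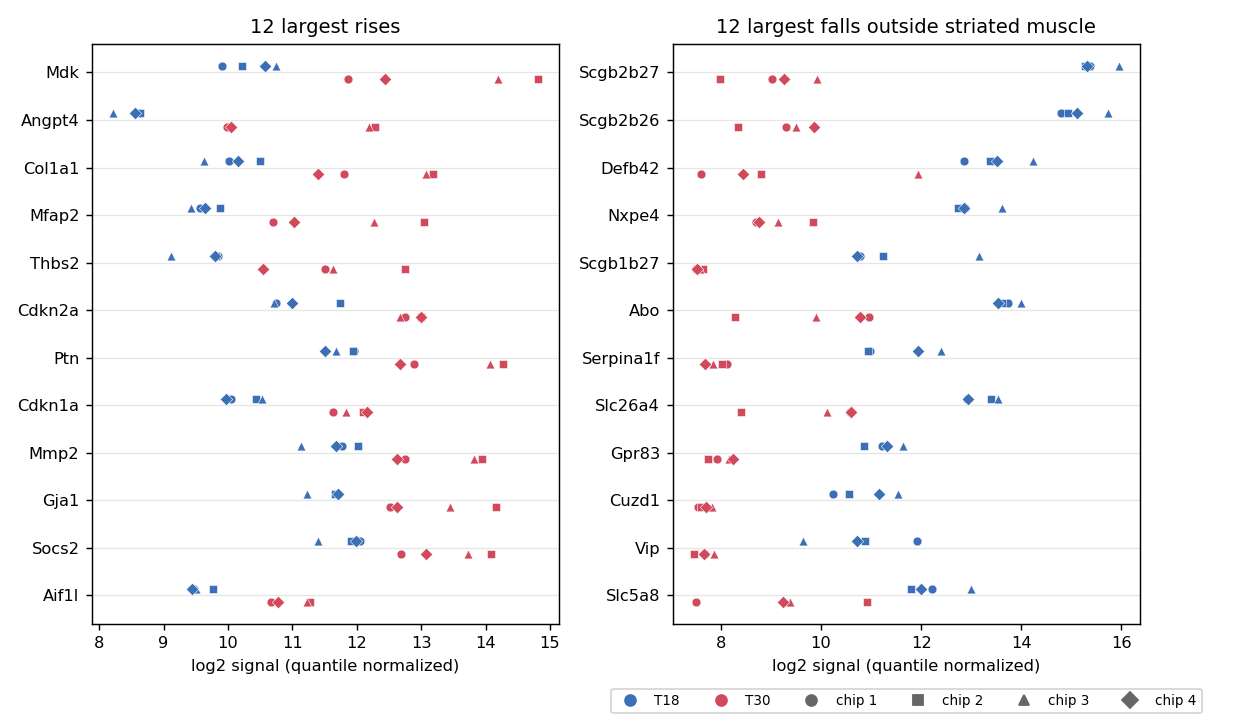
Log2 signal of each mouse for the 12 largest rises (left) and the 12 largest falls outside striated muscle (right), T18 in blue and T30 in red, with a marker shape for each chip. In Mdk and Col1a1 the T30 mice of chips 2 and 3 lie above those of chips 1 and 4, and in Scgb2b27 all 4 T30 mice lie at 7.98 to 9.92 against 15.27 to 15.95 in T18.

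Striated muscle genes formed the largest named group of falls. Of 122 genes listed, 104 had a probe and 67 were tested. Of the 67, 34 fell, against 1.24% of all genes, none rose and 33 did not pass, with a median of -1.15. In 51 of the 67 every T30 mouse lay below every T18 mouse, against 6.58% of all genes. The list mean was 9.87, 10.35, 10.66 and 10.34 in the T18 mice of chips 1 to 4, and 8.65, 8.69, 8.63 and 8.70 in the T30 mice. The T30 means lay near the lowest signal of a detected probe on these arrays, 8.50 to 9.07, and 41 of the 67 genes were detected in no T30 mouse. The same mean was 8.39 to 8.63 in the 3 OPT-tm tumors and 9.03 to 10.49 in the OPT15 and OPT18 prostates.

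The members that fell included genes of the contractile apparatus, calcium handling and energy supply. Myl1, an essential myosin light chain, gave 14.11, 15.13, 15.17 and 14.83 in T18 and 8.21 (not detected), 10.73, 9.35 and 10.08 in T30, a 37.3-fold fall (adjusted p = 0.000651 by limma), while a further probe of it, detected in 2 T18 mice, differed by -1.11. Atp2a1, the calcium pump of the sarcoplasmic reticulum, fell from 13.01 to 14.16 down to 8.38 to 9.32. Pvalb, a calcium buffer, Myl3, a slow and cardiac light chain, and Cox6a2, the muscle form of a cytochrome oxidase subunit, were detected in no T30 mouse and fell at least 8.82-fold, 8.07-fold and 8.55-fold. The fall did not extend to every member. Acta1, skeletal alpha actin, stayed high, at 15.15 to 15.66 in T18 and at 14.89, 12.18, 13.78 and 14.25 in T30, and did not pass (-1.66 ± 0.48, adjusted p = 0.113 by limma). Pdlim3, a Z-disc protein, gave -0.83 ± 0.21 (adjusted p = 0.0784 by limma). Smooth muscle genes, which belong to the prostatic stroma, gave no call among 27 (median -0.41). Of the 27, 22 were lower in T30, and 7 were lower with no overlap, against 6.58% of all genes. Acta2 was at 15.54 to 16.12 in T18 and 15.88 to 16.12 in T30, at the upper end of the scale, where a change can be hidden. Actg2 gave -0.60 ± 0.16 (adjusted p = 0.101 by limma).

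With the striated muscle genes left out before the fit and the adjustment of p-values, 96 of the 100 other falls and 22 of the 26 rises were called by limma, and no gene was called that had not been called before. Genes outside the list that are also known from muscle were among them: Eef1a2, an elongation factor of muscle and neurons, fell by 2.78 ± 0.14 and at least 3.72-fold, with further probes at -2.12 and -0.55, and Fbxo32, a ubiquitin ligase of muscle, by 1.70 ± 0.22. Over the 21 arrays outside the comparison, 6 of the 100 genes followed the mean of the muscle list with a Pearson correlation over 0.8: Trim72, Avpr1a, Car3, Aldh1a7, Vip and Cldn10. Of these, Avpr1a was not called with chip as a block (adjusted p = 0.0748 by limma). Leaving these out as well left 94 falls. Scgb2b27, Scgb2b26, Abo and Gpr83 were among the 94, with correlations of 0.67, 0.56, 0.74 and 0.69. Trnp1 and Krt15, at 0.80 and 0.79, were also among them. The limit of 0.8 is thus arbitrary, and how far the 94 falls go with muscle content was not tested. The arrays behind these correlations share chips and include the 3 OPT-tm tumors. In these tumors the muscle mean was low (8.39 to 8.63), so a gene high in them could hardly pass the limit. Syp, at 13.78 to 14.07 in these tumors, gave a correlation of -0.61.

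**Figure D3:**
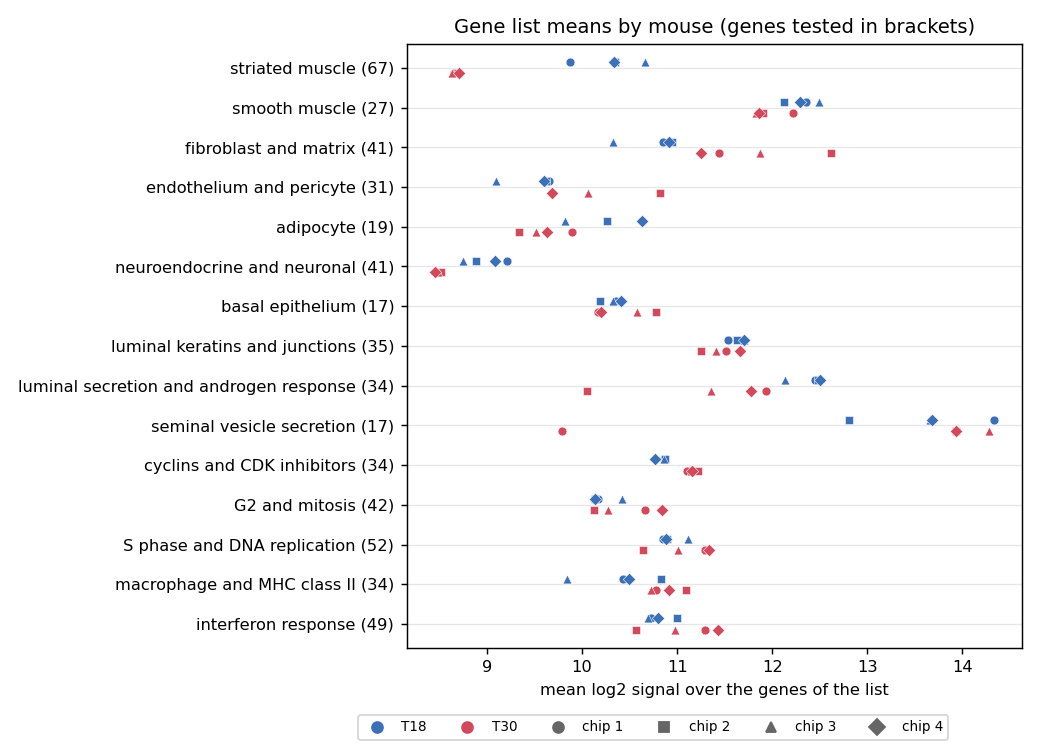
Mean log2 signal over the genes of each list in each mouse, T18 in blue and T30 in red, with the number of genes tested in brackets. The striated muscle means of the 4 T30 mice lie at 8.63 to 8.70 against 9.87 to 10.66 in T18, while the seminal vesicle mean of the T30 mouse of chip 1 lies at 9.79 against 13.93 to 14.28 in the other T30 mice.

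Some neuronal genes fell as well. Of 41 genes tested in the neuroendocrine and neuronal list, 8 fell, against 1.24% of all genes, and none rose (median -0.30). They were Syt4, Cplx1 and Syp, proteins of synaptic vesicle release, Stmn2, Gap43 and Rtn1 of growing or mature neurites, Rbfox1, a splicing factor, and Scg5, a chaperone of secretory granules. Syt4 was not called with chip as a block (adjusted p = 0.0572 by limma). Of the 41 genes, 24 were detected in no T30 mouse and 12 in no T18 mouse. With detection required on all 4 arrays of at least 1 group, the list held 4 falls. Syp, synaptophysin, gave 10.15, 9.51, 9.81 and 10.21 in T18 and 8.61, 8.33, 8.67 and 8.80 in T30 (-1.32 ± 0.18, adjusted p = 0.00546 by limma), and was detected in 1 T30 mouse. Vip, a neuropeptide of parasympathetic nerves to the pelvic organs, gave 11.91, 10.87, 9.63 and 10.72 in T18 and 7.67, 7.46, 7.86 and 7.66 in T30. It was detected in no T30 mouse, and its fall was at least 4.08-fold. Ddc, the decarboxylase that makes dopamine and serotonin, was detected in 3 T18 mice and no T30 mouse and missed the threshold (-1.51 ± 0.34, adjusted p = 0.0536 by limma). Isl1, a homeobox factor of the same list, lay the other way, at 11.74 to 12.09 in T18 and 12.47 to 13.79 in T30, and did not pass the test.

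A list of autonomic neuron genes, put together after the values were seen, gave 6 falls among 16 tested, against 1.24% of all genes. All 16 were lower in T30, with a median of -0.91. Of the 16, 12 were detected in no T30 mouse and 2 in no T18 mouse. With detection required on all 4 arrays of at least 1 group, 4 falls remained. The falls were in Vip, Slc10a4, Cartpt, Sncg, Gap43 and Stmn2, of which Sncg was not called with chip as a block (adjusted p = 0.0923 by limma). The enzymes that define noradrenergic neurons were near background in both groups: Th was detected in 1 T18 mouse and Dbh in none, and neither was called. The neuronal list mean was 9.21, 8.88, 8.75 and 9.08 in the T18 mice and 8.49, 8.52, 8.48 and 8.45 in the T30 mice. The T18 mice ran in the opposite order in the neuronal and striated muscle lists, with chip 1 highest in the former and lowest in the latter and chip 3 the reverse. The falls of the neuronal list numbered 2 without the T30 mouse of chip 3, 3 without the T18 mouse of chip 4, 4 without that of chip 2 and 5 without the T30 mouse of chip 4, and those of the autonomic list numbered 3 without the first 3 of these.

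Few fat cell genes passed. Of 19 adipocyte genes tested, 2 fell, Car3 and Plin4, against 1.24% of all genes (median -0.51). Car3, carbonic anhydrase of fat and muscle, gave 12.81, 11.62, 9.38 and 12.04 in T18 and 9.47, 7.78, 7.61 and 7.76 in T30. The T18 mouse of chip 3 thus lay below the T30 mouse of chip 1, although each T30 mouse lay below the T18 mouse of its own chip. Plin4, a lipid droplet protein, fell from 11.35 to 12.40 down to 10.47 to 11.13 and was not called with chip as a block (adjusted p = 0.0613 by limma). Adipoq, which encodes the hormone adiponectin, gave -2.32 ± 0.58 and did not pass (adjusted p = 0.0767 by limma).

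The rises were led by secreted growth factors and matrix proteins. Mdk, the heparin-binding growth factor midkine, gave 9.90, 10.22, 10.75 and 10.57 in T18 and 11.87, 14.81, 14.19 and 12.44 in T30, a 7.83-fold rise (2.97 ± 0.58, adjusted p = 0.0330 by limma). A further probe of Mdk detected in all 8 mice differed by 2.67, and its other probes, detected in 1 mouse or none, by 0.49 and 0.40. Ptn, pleiotrophin, the other member of the midkine family, gave 11.50 to 11.95 in T18 and 12.88, 14.27, 14.06 and 12.67 in T30 (1.70 ± 0.35, adjusted p = 0.0387 by limma). Angpt4, a ligand of the Tie2 receptor of vessels, was at 8.22 to 8.64 in T18 and at 9.99, 12.28, 12.19 and 10.05 in T30. In all 3 genes the T30 mice of chips 2 and 3 were 1 to 3 log2 units above those of chips 1 and 4, which were themselves above every T18 mouse. Mdk kept its call with chip as a block (adjusted p = 0.0487 by limma), while Ptn and Angpt4 did not (0.0560 and 0.0720). In the OPT18 prostates Mdk ran from 9.52 to 13.78 and in the OPT-tm tumors from 9.39 to 14.92.

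Of 41 fibroblast and matrix genes, 3 rose, against 0.241% of all genes, and none fell. In the list 40 were higher in T30 (median 1.15), and 21 were higher with no overlap, against 5.26% of all genes. Col1a1 and Col1a2 encode the chains of type I collagen. Col1a1 gave 10.02, 10.49, 9.63 and 10.16 in T18 and 11.80, 13.18, 13.08 and 11.40 in T30, a 4.90-fold rise (adjusted p = 0.0178 by limma), and Col1a2 rose 2.49-fold. Thbs2, a matricellular thrombospondin, rose from 9.12 to 9.85 up to 10.55 to 12.75. Outside the list, Mfap2, a microfibril protein, Mmp2, a gelatinase that cuts basement membrane collagen, and Gja1, a gap junction connexin of stroma, rose by 2.13, 1.63 and 1.61. With chip as a block, Col1a1 was called (adjusted p = 0.0478 by limma) and Col1a2, Thbs2, Mfap2, Mmp2 and Gja1 were not (0.0625 to 0.0783). Among members that did not pass, Dcn, decorin, gave 0.14 ± 0.29, and Sparc, a collagen-binding matrix protein, gave 12.82 to 13.69 in T18 and 14.04 to 15.48 in T30 with no overlap (1.36 ± 0.32, adjusted p = 0.0632 by limma). The list mean was 10.85, 10.95, 10.33 and 10.91 in T18 and 11.44, 12.62, 11.87 and 11.25 in T30. The list held 7 and 5 rises without the T30 mouse of chip 1 or 4, 0 without that of chip 3 or without the T18 mouse of chip 3, and 1 when any other single T18 mouse was left out.

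Inhibitors of cyclin-dependent kinases were among the rises. Of 34 genes tested in the cyclin and CDK inhibitor list 3 rose, against 0.241% of all genes, and all 3 were inhibitors. Cdkn2a, which encodes the Ink4a and Arf tumor suppressors, gave 10.74, 11.74, 10.71 and 10.99 in T18 and 12.74, 13.00, 12.67 and 12.99 in T30, a 3.49-fold rise (1.80 ± 0.23, adjusted p = 0.00333 by limma). Cdkn2b, its neighbour on chromosome 4, rose from 10.14 to 10.61 up to 11.21 to 11.95 (adjusted p = 0.0112 by limma). Cdkn1a, the best known target gene of Trp53, gave 10.04, 10.43, 10.53 and 9.97 in T18 and 11.63, 12.09, 11.83 and 12.16 in T30, a 3.22-fold rise (adjusted p = 0.00108 by limma). The T30 mice lay within 0.8 log2 units of each other in each of these genes. The inhibitors Cdkn1c, Cdkn2c, Cdkn1b and Cdkn2d did not pass, with differences of 1.23, 0.69, 0.38 and 0.30. Cdkn2a, Cdkn2b and Cdkn1a were called with chip as a block. Further probes of Cdkn2a and Cdkn1a differed by 1.56, and by 0.92 and 0.85. In the OPT-tm tumors Cdkn1a was at 12.86 to 13.38 and Cdkn2a at 12.07 to 12.41.

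Cyclins and the cell cycle lists did not follow. Ccnd1, the D-type cyclin that starts phosphorylation of Rb, gave 13.58, 12.89, 14.62 and 13.75 in T18 and 12.10, 15.85, 15.76 and 14.33 in T30, so the T30 mice lay below, within and above the T18 range (0.80 ± 0.75, adjusted p = 0.636 by limma). None of 42 genes of G2 and mitosis and none of 52 of S phase and DNA replication passed, with medians of 0.25 and 0.12, although 39 and 41 of them were higher in T30. The mitotic mean was 10.17, 10.14, 10.42 and 10.14 in T18 and 10.66, 10.13, 10.27 and 10.84 in T30, and the replication mean was 10.85, 10.89, 11.11 and 10.88 in T18 and 11.29, 10.64, 11.01 and 11.34 in T30. In both lists the T30 mice of chips 1 and 4 lay above all T18 mice and those of chips 2 and 3 lay within or below the T18 range. E2f2 and Ccne2, which act at the entry into S phase, gave 0.13 ± 0.27 and 0.61 ± 0.25 and did not pass.

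Other rises were spread over many functions. Id1, a bHLH inhibitor and BMP target, rose from 11.63 to 12.10 up to 12.73 to 13.56 (adjusted p = 0.00589 by limma), and Aif1l, an actin-binding protein, from 9.44 to 9.76 up to 10.67 to 11.28. Socs2, a feedback inhibitor of growth hormone signaling, rose by 1.56 ± 0.29, and Angptl7, a secreted angiopoietin-like protein, by 1.42 ± 0.29. Cxcl14, a chemokine, Mfsd2a, a lipid transporter, Ces2g, a carboxylesterase, and Lor, a protein of the cornified envelope, rose by 1.04 to 1.31. With chip as a block, Socs2, Angptl7, Cxcl14, Mfsd2a and Lor were not called (adjusted p = 0.0560 to 0.0774 by limma). Of the TGFb pathway, Smad2 was 1.63-fold higher with little spread (10.49 to 10.78 in T18, 11.23 to 11.37 in T30, adjusted p = 0.0133 by limma), short of the 2-fold criterion. Tgfb1, Tgfbr1, Tgfbr2, Tgfbr3 and Smad3 did not pass, with differences of 0.54, 0.21, -0.12, -0.44 and -0.07. Macrophage and MHC class II genes (34 tested, median 0.55), interferon response (49, median 0.21), endothelium (31, median 0.52), oxidative phosphorylation (67, median -0.04) and ribosomal proteins (51, median -0.04) held no call in either direction. In the first 3 of these lists 31, 40 and 28 genes were higher in T30. Of the same lists, 5, 3 and 7 genes were higher with no overlap, against 5.26% of all genes. Flna, Mki67 and Spp1 were not analysed here, and Cdh2 was not detected in any of the 8 mice.

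The T30 prostates spread more widely than the T18 prostates did, in a limited set of genes. The SD over the 4 mice had a median of 0.23 in T30 and 0.21 in T18, and 5914 of 10768 genes had the larger SD in T30. The tail set the groups apart: 271 genes had an SD over 1 in T30 and 46 in T18, and 37 against 3 had an SD over 2. Of the 271, 8 were called changed. The count was 125 without the T30 mouse of chip 2 and 243 to 405 when any other single T30 mouse was left out, and that of T18 was 14 without the mouse of chip 3, 77 without that of chip 4 and 56 and 57 without those of chips 1 and 2. Pearson correlations over all genes, which share the array platform, were 0.970 to 0.984 among the 6 pairs of T18 mice and 0.918 to 0.974 among the 6 pairs of T30 mice, and the number of genes at least 2-fold apart was 89 to 375 and 188 to 1190. The T30 mice of chips 1 and 4 were the closest pair with 188 genes apart, and those of chips 2 and 4 were farthest by this count. With average linkage on the correlations, the T30 mice of chips 2 and 3 formed a branch apart from all T18 mice and the T30 mice of chips 1 and 4.

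**Figure D4:**
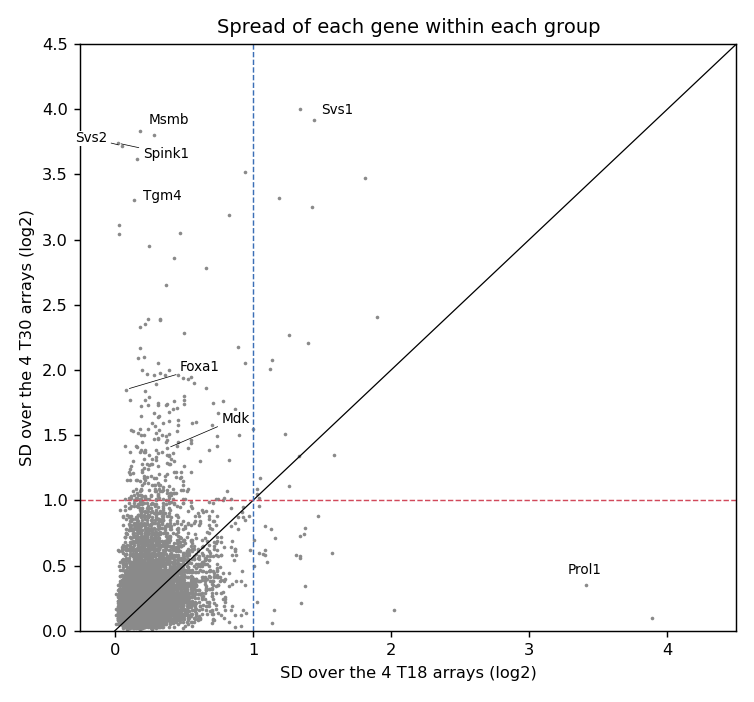
SD of the log2 signal over the 4 T30 mice against that over the 4 T18 mice for 10768 genes, with the line of equal SD and dashed lines at an SD of 1. Above the upper line lie 271 genes in T30, and to the right of the other line 46 in T18, of which Prol1 is an example.

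The T30 values of each of the 271 genes were put in order, and the largest of the 3 gaps, whatever its size, split the mice. A mouse counted as alone can thus belong to a graded series. By this rule, 101 genes had the T30 mouse of chip 2 alone at the low end and 28 had it alone at the high end. Of the low genes, 12 belonged to the luminal secretion list, which held 34 of the 10768 genes tested. The low genes were 101 of the 10768 tested. They also held 5 of 25 antimicrobial, 4 of 29 progenitor, 3 of 49 interferon and 3 of 11 urothelium genes tested. The luminal keratin and junction list (35 tested) and the matrix protease list (27 tested) held 2 each. Some of these genes were in more than 1 list. Msmb, a secreted microseminoprotein, was at 15.68 to 16.06 in T18 and at 15.97, 8.14, 15.50 and 15.87 in T30. Defb50 was at 8.43 in this mouse and at 15.96 to 16.09 in the other T30 mice, and Tgm4, the transglutaminase of the copulatory plug, at 8.51 against 13.69 to 16.07. Psca, a surface antigen of prostate epithelium, was at 8.56 against 13.04 to 14.15, and Foxa1, a transcription factor of luminal cells, at 10.14 against 13.26 to 14.17. Msmb and Defb50 were not detected in this mouse. The genes high in this mouse alone held 4 of the 31 tested genes of the endothelium list, Angpt2, Icam2, Robo4 and Sox18. Outside the list, Esm1, a proteoglycan secreted by endothelium, was at 13.35 against 9.71 to 10.43. Angpt2, an antagonist of the Tie2 receptor, was at 13.26 against 10.22 to 10.46, and Sox18, an endothelial transcription factor, at 11.35 against 9.06 to 9.78.

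By the same rule, the T30 mouse of chip 1 alone was low in 46 genes and alone high in 14. Of the low genes, 12 belonged to the list of seminal vesicle secretion (17 genes tested), which holds the proteins that coagulate semen. Svs2 was at 15.74 to 15.85 in T18 and at 8.48, 16.01, 15.88 and 15.88 in T30. Svs4, Svs5, Svs1 and Pate4 were at 7.71 to 9.94 in this mouse and at 15.41 to 16.12 in the other T30 mice. Svs3b, Svs3a and Svs6 were at 8.0, 7.70 and 8.40 against 14.36 to 16.10, and in T18 they ran from 9.40 to 15.98. The mean of the 17 seminal vesicle genes was 14.34, 12.81, 13.66 and 13.68 in T18 and 9.79, 13.93, 14.28 and 13.94 in T30. Spink1, a secreted trypsin inhibitor, and Cyp4a12a, a male-type fatty acid hydroxylase, were also low in this mouse, with Spink1 at 8.50 against 15.72 to 16.11 and Cyp4a12a at 7.72 against 13.84 to 15.30. Msmb and Tgm4 were at 15.97 and 16.07 in this mouse, and its mean of the luminal secretion list, of which Spink1 is a member, was 11.94. How much seminal vesicle or which lobes each dissection held is not recorded in the labels. Svs2 was at 7.83 to 8.30 in the 3 OPT-tm tumors and at 14.72 to 16.10 in the OPT15 and OPT18 prostates.

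In 73 genes the largest gap set the T30 mice of chips 2 and 3, which were high, apart from those of chips 1 and 4. This group held Mdk, Angpt4 and Mfap2. It also held 7 of the 41 tested genes of the fibroblast and matrix list, and 3 of the 42 of the receptor tyrosine kinase and ligand list. Igf1, insulin-like growth factor, was at 9.41 to 10.06 in T18 and at 9.73 and 10.51 in the T30 mice of chips 1 and 4, and at 11.97 or more in the other T30 mice. Fgf10, a stromal factor of prostate budding, and Bmp4 were at 12.99 to 13.28 and 11.90 to 12.39 in the mice of chips 2 and 3 and at no more than 11.26 and 10.55 in the others. Trp63, the master factor of basal epithelium, was at 10.62 to 11.35 in T18 and at 10.56, 13.23, 12.99 and 11.01 in T30 (0.91 ± 0.56, adjusted p = 0.443 by limma). Krt14, a basal keratin, was at 11.78 to 12.39 in T18 and at 12.68, 14.88, 14.44 and 13.52 in T30, with no overlap. It had an SD of 0.98 in T30, just under the limit of 1, and did not pass (1.73 ± 0.41, adjusted p = 0.0697 by limma). Hoxd8 and Hoxd9 split the T30 mice in the same way. In none of Igf1, Fgf10, Bmp4, Trp63, Hoxd8 and Hoxd9 were all T30 mice on the same side of all T18 mice.

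**Figure D5:**
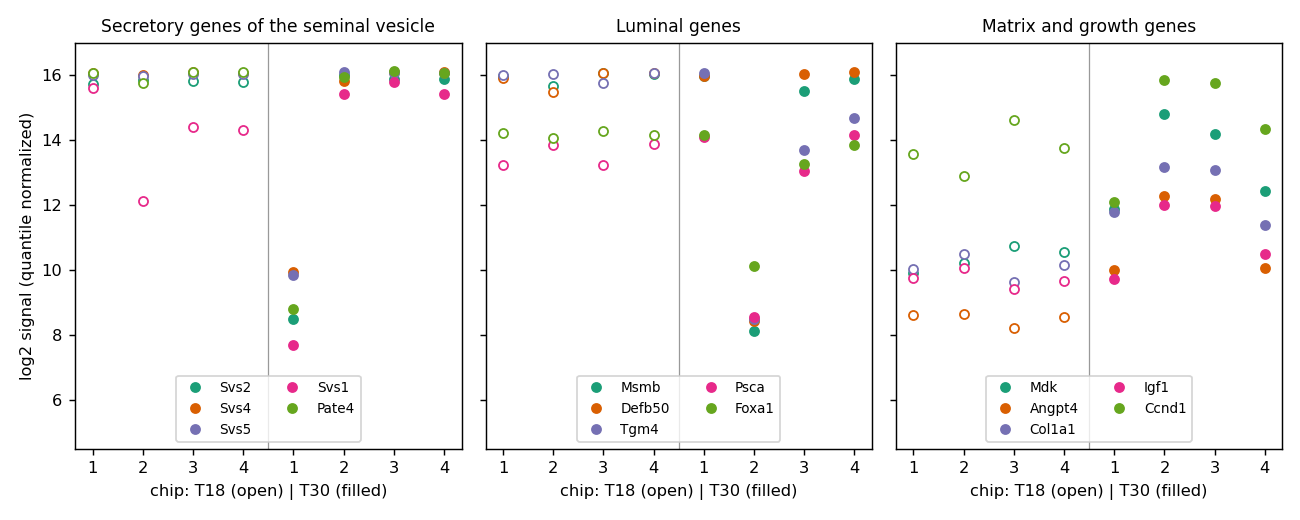
Log2 signal by chip for 5 seminal vesicle genes (left), 5 luminal genes (middle) and 5 matrix and growth genes (right), T18 mice as open and T30 mice as filled points. The T30 mouse of chip 1 is low in the left panel (7.71 to 9.94), the T30 mouse of chip 2 is low in the middle panel (8.14 to 10.14), and the T30 mice of chips 2 and 3 are highest in the right panel.

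Among the 46 genes that spread in T18, single mice stood apart as well. Prol1, a proline-rich protein of tears and saliva, was at 14.79 in the T18 mouse of chip 2 and at 7.86 to 8.17 in the others, and Pip, a secreted protein of the same glands, at 11.85 against 7.76 to 7.87. Neither was detected in any T30 mouse.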

How the data were processed

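RNA of whole prostates from 8 mice was hybridised to MouseRef-8 v2.0 BeadChips of Illumina. The authors collected the intensity values with BeadStudio and deposited them without normalization, each with a detection p-value that compares a probe with the negative controls (deposited per array). The authors also deposited log2 values made with the lumi package by log2 transformation and robust spline normalization, which served here as an alternative.

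The deposited intensity values were log2 transformed without background correction and quantile normalized over all 29 arrays. Probes detected at p under 0.01 on at least 1 of the 29 arrays (15825 of 25697) were kept, and each gene was represented by the probe detected on most arrays, which gave 10768 genes. Of the probes, 23978 had a gene symbol in GEO's platform annotation and 1719 had none. The 4 T30 and 4 T18 arrays were fitted with limma 3.58.1 in R 4.3.3, and p-values were adjusted by the Benjamini-Hochberg method over all genes. No arrays held identical values. On simulated data for 10768 genes, changes of 1.5, 2, 3 and 4 log2 units were recovered in 88%, 92%, 98% and 100% of 50 genes each, with 3 false calls. Whether these rates hold for the T30 and T18 arrays, which differ in spread, was not tested.

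The genes named were the 12 largest rises and the 12 largest falls outside striated muscle among calls without overlap, the 5 largest falls in striated muscle, examples from 39 gene lists, the 10 genes with the largest SD in T30 and the genes that the study named for its arrays or stains. Other genes, and the secretoglobin, beta-defensin, whey acidic protein, autonomic neuron and epididymis groups, were chosen after values were seen. The members and lists were chosen with earlier results of these data known. Alternatives covered normalization, background correction, filter, probe choice, chip as a block, all arrays in the same fit and leaving out each mouse. The number of arrays limits the precision.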

Additional observations from a re-analysis of the deposited data

Results flagged for a closer look

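In 282 sets of 4 values, a gene or a list mean in T30 or in T18, 35 held a mouse whose gap to the nearest other mouse exceeded Dixon's 95% critical value for a set of 4. Chance gives such a mouse in about 1 of 20 sets, but the genes include some named for their spread or after their values were seen, so the number of sets is not read against that rate.

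The T30 mouse of chip 1 stood apart in 12 sets. It was low in seminal vesicle genes, with Svs1 at 7.71, Svs2 at 8.48, Svs3a at 7.70, Svs3b at 8.0, Svs4 at 9.94, Svs5 at 9.85, Svs6 at 8.40 and Pate4 at 8.80, in the seminal vesicle list mean at 9.79 and in Spink1 at 8.50. It was high in Pbsn at 10.51 and Car3 at 9.47. The T30 mouse of chip 2 was low in Msmb at 8.14, Defb50 at 8.43 and Krt15 at 9.17, and high in Angpt2 at 13.26 and Dcn at 15.77. The T30 mouse of chip 4 differed by less than 0.7 log2 units from the nearest mouse, in Ddc at 7.67, Rtn1 at 9.23 and Prol1 at 8.50.

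The T18 mouse of chip 3 stood apart in 10 sets. It was low in the list means of fibroblast and matrix at 10.33, endothelium and pericyte at 9.09 and luminal secretion at 12.14, and in Thbs2 at 9.12 and Gja1 at 11.23. It was high in the list means of G2 and mitosis at 10.42 and S phase at 11.11, and in Nxpe4 at 13.61, Scgb2b27 at 15.95 and Scgb2b24 at 9.42. The T18 mouse of chip 2 was high in Prol1 at 14.79 and Pip at 11.85 and low in Pate4 at 15.77. The T18 mouse of chip 4 was low in the cyclin and CDK inhibitor mean at 10.77 and in Cdkn1b at 8.68.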

How the results depend on the processing

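All 160 called genes kept their direction in each of 19 alternatives that tested them, and 144 were tested in all 19. In all 19, 2 rises and 65 falls, 34 of them outside striated muscle, were called. With only the medians of the arrays set equal, the calls were 2 rises, 81 falls and 48 falls outside striated muscle, so that rises made up 2.41% of calls against 16.2%. Without a filter on dim probes there were 14 rises, and with chip as a block 15. With all 29 arrays in the same fit, which pools the spread of 5 groups, there were 158 rises, 206 falls and 169 falls outside striated muscle. Leaving out a mouse gave 7 to 114 rises, 84 to 194 falls and 52 to 159 falls outside striated muscle. The spread among T30 arrays, as genes with an SD over 1, was 737 with neqc background correction (306 in T18), which widens dim values by construction, and 125 to 405 without a mouse. Other alternatives kept these counts within 1.5 times. Rises in the fibroblast list ran from 0 (medians equal) to 19 (all arrays in the same fit), and falls in the neuronal and autonomic lists were 2 and 3 with medians equal. The cause of the other shifts was not tested. The replicate numbers are those of single mice and pair no arrays, and chip as a block pairs the T30 and T18 array of each chip. Leaving the striated muscle genes out of the fit, an alternative chosen after seeing the data, gave 22 rises and 96 falls. With 4 mice in a group, smaller changes can be missed, and signals near 16 or below detection bound the fold changes.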

Other observations

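Lists not described in the report gave few calls, and over all genes 1.24% fell and 0.241% rose. Serpina1f was the only fall among 17 seminal vesicle genes (median -0.53), Cldn10 the only fall among 35 luminal keratin and junction genes (median -0.04), and Aldh3a1 the only fall in both the progenitor list (29, median 0.18) and the glutathione and detoxification list (51, median -0.08). Defb2 was the only fall among 25 antimicrobial genes (median 0.07). Mmp2 was the only rise among 27 matrix proteases (median 0.39), Cxcl14 among 30 chemokines and cytokines (median 0.17) and Id1 among 36 genes of the TGFb and BMP pathways (median 0.17).

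No gene was called by limma in the lists of urothelium (11 tested, median -0.36), lymphocyte (17, 0.05), neutrophil and mast cell (12, -0.02), MHC class I presentation (24, 0.17), complement (13, 0.23), erythrocyte (5, 0.25), immediate early genes (22, 0.17) and hypoxia and glycolysis (33, 0.18). The same held for ER folding (54, -0.10), cholesterol and fatty acid synthesis (32, -0.13), polyamine metabolism (12, -0.09), Wnt, Notch and Hedgehog (45, 0.22), receptor tyrosine kinases (42, 0.16), EMT regulators (11, 0.55), osteopontin receptors and SIBLING proteins (7, 0.45) and posterior Hox genes (18, -0.02). In the osteopontin receptor and SIBLING list all 7 genes were higher in T30, 3 of them with no overlap, against 5.26% of all genes. Over all genes, 1897 had an unadjusted p under 0.05.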
